A study of Homo sapiens with 12 samples.

Results

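The comparison described here set the SD line against the V line, both derived from A549 cells, which were established from a human lung adenocarcinoma. SD cells carried HA-tagged AHR with S489D, a substitution of serine by aspartate that is often used as a stand-in for a phosphorylated serine, and V cells carried the empty lentiviral vector pLV-EF1a-IRES-Hygro. Members were taken by their genotype and treatment labels, which gave 6 of the 12 libraries of the series, 3 for each line, all named as biological replicates. The other 6 libraries came from lines with wild-type HA-AHR (WT) and HA-AHR with S489A (SA). All 4 lines were made by infection of A549 and selection with hygromycin, kept the AHR gene of the parent cells and were grown in RPMI medium with serum, with no added AHR ligand named. Since 1 SD line and 1 V line were sequenced, S489D AHR and whatever else sets these 2 lines apart cannot be told apart, and the p-values below measure the spread between libraries of 1 line.

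AHR is a ligand-activated transcription factor of the bHLH-PAS family. It rests in the cytoplasm with HSP90 chaperones, enters the nucleus when a ligand binds, pairs with ARNT and binds DNA at sites with the core GCGTG. CYP1A1, CYP1B1, TIPARP and its own repressor AHRR are its classical targets, and in epithelial cells it is also known for effects on adhesion, migration and inflammatory genes. The question behind the SD line was whether AHR phosphorylated at this serine by the kinase PLK1 promotes the epithelial-mesenchymal transition (EMT).

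The total of the expected counts was between 9334091 and 11207920 in SD and between 9378152 and 9775608 in V. The levels below are CPM (counts scaled to a common library total, with TMM factors). By the library totals without TMM factors, 3 counts, the limit that a count of 0 allows, were worth between 0.268 and 0.321 CPM. This limit covers counting error only. Mitochondrially encoded genes took 7.92 to 10.1% of the counts in SD and 8.57 to 9.70% in V. As markers of the A549 label, KRT8, KRT18, KRT7 and CDH1 were present in all 6 libraries, while KRT19 was at or below 0.536 CPM and EPCAM between 0.858 and 1.75 CPM. Of 8 immune markers, 6 had no count in any of the 6 libraries, and of 5 endothelial markers 4 had none. The summed fibroblast markers were at 7.61 to 10.3 CPM in SD and 10.3 to 13.9 CPM in V, with DCN at 0, and the 4 markers of the packaging cells of the virus at 6.24 to 8.69 CPM in SD and 6.94 to 8.33 CPM in V. CD68 and CD14, the immune markers that were detected, summed to 47.6 to 53.7 CPM in SD and 33.0 to 41.0 CPM in V. CD14 alone was at 16.5 to 22.4 CPM in SD and 11.4 to 13 CPM in V and was among the genes called below. The part of these 2 markers in any result was not tested.

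AHR itself was checked first. A second annotated gene, ENSG00000283321 (chr7:17299295-17467234, GRCh38), overlaps the AHR gene (ENSG00000106546, chr7:16916359-17346152), both on the plus strand, and RSEM divides reads that fit both. The sum of the 2 genes was 67.4, 65.8 and 74.3 CPM in the V libraries and 292, 305 and 290 CPM in the SD libraries. Every SD library was above every V library by a wide margin. The sum rose 4.28-fold (log2 fold change 2.10, SE 0.061, adjusted p = 7.45e-19 by edgeR's quasi-likelihood test). The exact two-sided permutation test gave p = 0.1, the smallest value that 3 against 3 libraries allow. AHR alone rose from 69.1 ± 4.51 to 210 ± 9.14 CPM (SD, n = 3), a log2 fold change of 1.60. ENSG00000283321 had no count in V and a mean of 85.5 CPM in SD, at least 817-fold higher when the V group is set to 3 counts (0.105 CPM). The same sum was 469 ± 16.4 CPM in WT and 393 ± 18.9 CPM in SA, so SD carried the least AHR RNA of the 3 AHR lines, and the part of this in any difference of SD from WT or SA was not tested.

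**Figure D1:**
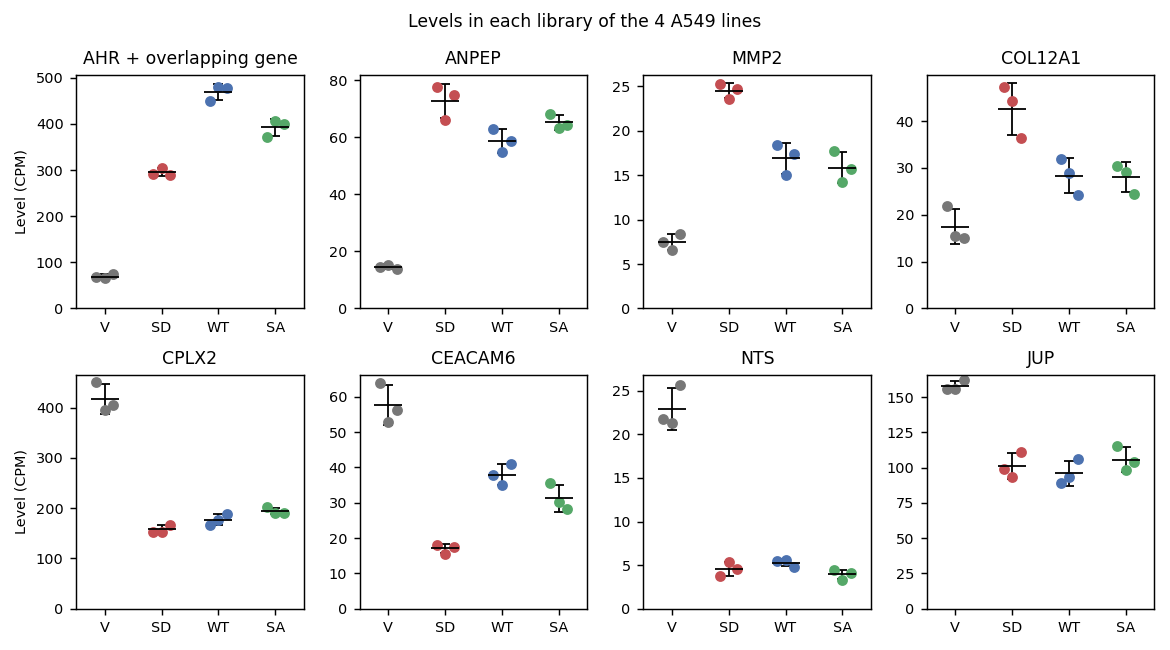
Levels of AHR with its overlapping gene and of 7 other genes in each of the 12 libraries (CPM, linear axis from 0), as points for libraries with the mean and SD of 3 libraries in black. The SD libraries lie above all V libraries for AHR, ANPEP, MMP2 and COL12A1 and below them for CPLX2, CEACAM6, NTS and JUP.

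In SD against V, 806 of 14890 tested genes passed an adjusted p of 0.05 (5.41% of the genes tested). Of these, 435 rose in SD (2.92%) and 371 fell (2.49%). Most changes were small. Among the genes that rose, the median log2 fold change was 0.41, and 270 of the 435 changed by less than 0.5 on the log2 scale. Among those that fell, the median was −0.46 and 203 of 371 stayed under 0.5. A change of at least 2-fold was seen in 60 genes that rose and 62 that fell. The 2 lines did not overlap in 426 of the 435 and 364 of the 371 genes, against 21.4% of all genes tested whose libraries did not overlap. The number of calls depended on single libraries. It was 856, 525 and 669 without SD replicates 1, 2 and 3 and 514, 508 and 502 without V replicates 1, 2 and 3. The call depended on abundance. In the quintile of genes with the lowest mean level (0.656 to 4.73 CPM) 2.69% were called, with a median size of 1.46 on the log2 scale, while in the highest quintile 9.10% were called, with a median size of 0.28. Protein-coding genes gave 418 rises and 325 falls among 12623 tested, and long non-coding RNA genes 13 rises and 41 falls among 1651.

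**Figure D2:**
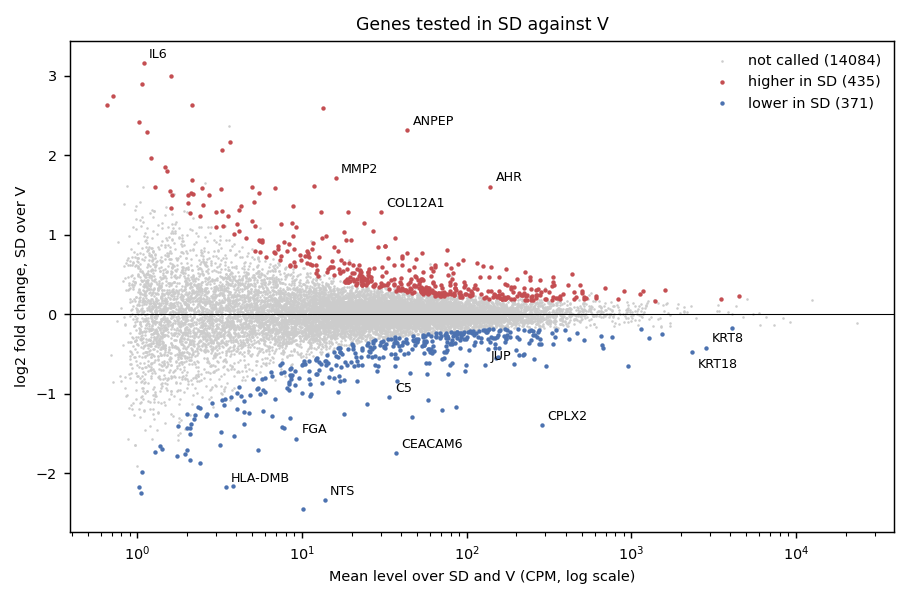
Log2 fold change of SD over V for the genes tested, against the mean level over the 6 libraries (CPM, log scale), with called genes in red (435 higher) and blue (371 lower). The gene that overlaps AHR, at 12.72, is off the scale and not drawn. Large changes are mostly those of genes of low abundance, and CPLX2, CEACAM6, ANPEP and MMP2 stand out at higher levels.

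ANPEP (aminopeptidase N, CD13, a membrane peptidase used as a marker of myeloid and some mesenchymal cells) had the lowest adjusted p of the genes that rose after AHR and the gene that overlaps it. It was at 14.7, 15.4 and 13.8 CPM in V and at 77.5, 65.9 and 74.7 CPM in SD. No SD library came near the V range. The rise was 4.98-fold (log2 fold change 2.32, SE 0.094, adjusted p = 9.46e-16). MMP2, a gelatinase that cuts type IV collagen, was at 7.51, 6.58 and 8.42 CPM in V and 25.3, 23.6 and 24.7 CPM in SD. It rose 3.27-fold (adjusted p = 1.98e-09). SERPINE2, an inhibitor of thrombin and urokinase secreted into the matrix, rose from 55.3 ± 4.89 to 96.8 ± 3.86 CPM (n = 3, adjusted p = 2.03e-08). These 3 genes were called under every setting tried.

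The other large rises were in genes near the detection limit in V. IL6, the cytokine, was at 0.206, 0.212 and 0.210 CPM in V, under the value of 3 counts in each library, and at 1.5, 2.47 and 1.96 CPM in SD (adjusted p = 0.000512). VCAM1, an adhesion molecule for leukocytes, was at 0.411, 0.106 and 0.210 CPM in V and 2.00, 1.72 and 1.96 CPM in SD (adjusted p = 0.00129). ACKR3, a scavenging receptor for the chemokine CXCL12, was at 0.318 to 0.421 CPM in V and 1.29 to 2.50 CPM in SD. The lines did not overlap for these 3 genes, and their fitted fold changes rest on few counts in V. ADAMTS14, a protease that trims procollagen, had 0 to 0.637 CPM in V and 1.29 to 3.92 CPM in SD. CAPN3, a calcium-dependent protease, reached 1.10 to 1.43 CPM in SD and CHRDL2, a secreted antagonist of bone morphogenetic proteins, 1.07 to 1.20 CPM, from at most 0.316 CPM in V. IL6, VCAM1, ACKR3 and ADAMTS14 were called under every setting that tested them, while CAPN3 and CHRDL2 were not, and none of the 6 had the 10 counts in every library that 1 of the filters asks for.

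Other genes among the largest rises carry limits of annotation or of a single library. GDF1, a growth factor of the TGF-beta family, was at 0, 4.03 and 0 CPM in V and 5.47 to 6.41 CPM in SD. V replicate 2 was the only V library with GDF1 reads, and without it the fitted log2 fold change was 8.91 in place of 2.16. CERS1, in the same 10 Mb bin of chromosome 19, was also called, and whether reads were divided between CERS1 and GDF1 was not tested. GDF1 was no longer called without V replicate 1 or 3 or SD replicate 2, with DESeq2 (adjusted p = 0.808) or with all 12 libraries in 1 fit (adjusted p = 0.291). FAM156B was at 8.23, 9.23 and 0 CPM in V and 20.1, 21.8 and 12.1 CPM in SD, and it has a near-identical paralog, FAM156A, with which reads may be shared. It lost the call without SD replicate 2, with DESeq2 and with all 12 libraries in 1 fit. FAM47E-STBD1, a readthrough transcript over its component genes, rose from 1.26 ± 0.395 to 5.29 ± 1.55 CPM (n = 3). SELPLG, the P-selectin ligand, rose from 0.492 ± 0.504 to 1.94 ± 0.474 CPM and the antisense transcript ST7-AS1 from 0.630 ± 0.190 to 2.30 ± 0.781 CPM, with V and SD libraries apart in both. Both lost the call in several runs that left out 1 library.

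CPLX2 (complexin 2, a regulator of vesicle fusion at synapses) had the lowest adjusted p of the genes that fell. It was at 450, 395 and 405 CPM in V and 153, 153 and 167 CPM in SD. The V libraries were all far above the SD libraries. The fall was 2.63-fold (log2 fold change −1.40, SE 0.060, adjusted p = 2.88e-15). NTS, the peptide neurotensin, had the largest fall of the named genes, from 21.8, 21.3 and 25.7 CPM in V to 3.70, 5.36 and 4.54 CPM in SD (5.05-fold lower, adjusted p = 1.04e-10). CEACAM6, a cell surface glycoprotein of epithelia and many carcinomas, was at 63.8, 52.9 and 56.2 CPM in V and 18.1, 15.5 and 17.6 CPM in SD (3.36-fold lower, adjusted p = 1.27e-12). All 3 separated the lines fully and were called under every setting.

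RTN4RL2, a receptor for myelin inhibitors of axon growth, fell from 120 ± 7.75 to 53.2 ± 5.05 CPM (n = 3). SVEP1, a large extracellular adhesion protein, fell from 66.3 ± 2.54 to 27.0 ± 1.93 CPM. PDE3A, which breaks down cAMP and cGMP, fell from 99.4 ± 5.30 to 43.2 ± 5.52 CPM. Each was between 2.24- and 2.45-fold lower, with adjusted p of 2.08e-11, 2.26e-11 and 7.31e-11. HLA-DMB, which helps to load peptides on MHC class II, was at 6.27, 5.20 and 5.47 CPM in V and at 1.10, 1.07 and 1.51 CPM in SD, with no overlap. The keratin KRT4 fell from 5.72 ± 0.869 to 1.99 ± 0.591 CPM and the membrane protein TMEM47 from 4.79 ± 1.19 to 1.54 ± 0.583 CPM. The long non-coding RNA LINC02582 fell from 8.34 ± 1.00 to 2.54 ± 0.845 CPM.

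Several of the larger falls were in genes of low level. LIN7A, a scaffold of cell polarity, fell from 3.10 ± 0.414 to 1.09 ± 0.101 CPM (n = 3). HOOK1, a microtubule adaptor, fell from 1.99 ± 0.407 to 0.584 ± 0.140 CPM, and ASIC2, an acid-sensing ion channel, from 2.09 ± 0.464 to 0.655 ± 0.135 CPM. CHST13, a chondroitin sulfotransferase, fell from 1.71 ± 0.382 to 0.413 ± 0.205 CPM and the antisense transcript PTGES2-AS1 from 1.67 ± 0.450 to 0.367 ± 0.215 CPM. These 5 genes lost the call in at least 3 of the runs that left out 1 library. CHURC1-FNTB, a readthrough transcript that shares reads with its component genes, passed at an adjusted p of 0.0498 only narrowly and lost the call under most settings.

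The 3 fibrinogen chains, which the hepatocyte makes as 1 complex and which A549 cells also express, fell together. FGA was at 16.9, 10.3 and 14.3 CPM in V and 4.0, 4.18 and 5.70 CPM in SD (2.96-fold lower, adjusted p = 6.34e-06). FGB was at 4.94, 2.23 and 4.21 CPM in V and 0.601, 0.429 and 1.96 CPM in SD (adjusted p = 0.00904). FGG was at 4.22, 1.91 and 2.95 CPM in V and 0.601, 0.965 and 1.07 CPM in SD (adjusted p = 0.00869). The lines did not overlap for any chain. FGA was called under every setting, while FGB lost the call without SD replicate 2, V replicate 1 or V replicate 3 and FGG without V replicate 1. The gene lists used here and below were chosen with earlier results of these data known, so their called shares are not independent evidence. In the list of lung and endoderm genes, 5 of 14 tested members were called (35.7%), all lower, while 2.49% of all genes tested fell. They were FGA, FGB, CPS1 (carbamoyl phosphate synthesis for the urea cycle, 180 ± 17.9 to 123 ± 10.3 CPM) and the gel-forming mucins MUC5AC (40.6 ± 5.82 to 28.6 ± 6.07 CPM) and MUC5B (378 ± 46.6 to 310 ± 36.8 CPM, with overlapping libraries). The count was 2 without SD replicate 2 or V replicate 1 and 3 without V replicate 3. The median log2 fold change of the list was −0.26, against 0.00301 over all genes tested. NKX2-1 and the surfactant protein genes were too low to be tested.

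Among epithelial genes, 7 of 15 tested members (46.7%) were called and all 7 fell, while 2.49% of all genes tested fell. The list median was −0.29. JUP (plakoglobin, which links cadherins and desmosomes to the cytoskeleton) was at 156, 156 and 162 CPM in V and 98.8, 93.3 and 111 CPM in SD (1.56-fold lower, SE of the log2 fold change 0.063, adjusted p = 1.05e-07). CDH1 (E-cadherin, the adhesion receptor of epithelia) was at 179, 169 and 160 CPM in V and 130, 132 and 117 CPM in SD (1.35-fold lower, adjusted p = 3.84e-05). Both were separate between the lines, with gaps wider than the spread within a line. The paired keratins of simple epithelia fell together, KRT8 from 3270 ± 54.0 to 2440 ± 75.1 CPM and KRT18 from 2730 ± 73.5 to 1960 ± 49.1 CPM (n = 3). KRT7, another keratin of simple epithelia, fell by 0.24, the tight junction protein CLDN1 by 0.40 and the desmosomal linker DSP by 0.23 on the log2 scale.

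The epithelial members that did not pass the test had values on both sides of 0. MUC1, a transmembrane mucin, was at 7.36 ± 0.739 CPM in V and 10.3 ± 1.28 CPM in SD (adjusted p = 0.112). OCLN, of tight junctions, was at 25.0 ± 1.54 and 20.5 ± 1.73 CPM (adjusted p = 0.131). TJP1 and PKP3 had log2 fold changes of −0.11 and −0.03. ESRP1, ESRP2, GRHL2, OVOL1, CLDN7, KRT19, CDH3 and ST14 were too low to be tested in these cells.

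Among mesenchymal genes, 4 of 18 tested members were called (22.2%) and all 4 rose, while 2.92% of all genes tested rose. They were MMP2, SPARC (a matrix glycoprotein, 1.01 ± 0.278 to 3.30 ± 0.475 CPM), SNAI2 (the transcription factor Slug, a repressor of CDH1) and VIM (vimentin, the intermediate filament of mesenchymal cells). SNAI2 was at 1.44, 1.70 and 2.52 CPM in V and 6.71, 3.00 and 4.19 CPM in SD (adjusted p = 0.0197). VIM was at 1010, 1070 and 1010 CPM in V and 1180, 1220 and 1290 CPM in SD (1.20-fold, adjusted p = 0.00256). Both separated the lines, SNAI2 at a low level. The count was 2 without V replicate 1, when SNAI2 and SPARC lost the call. FN1 (fibronectin) was at 396 ± 50.3 CPM in V and 363 ± 41.0 CPM in SD (adjusted p = 0.43), CDH2 (N-cadherin) at 35.0 ± 2.59 and 41.8 ± 2.92 CPM (adjusted p = 0.0954) and ZEB1 at 28.6 ± 3.16 and 27.4 ± 1.03 CPM (adjusted p = 0.83). TWIST1, ZEB2 and VCAN had log2 fold changes of 0.44, 0.61 and 0.73 without passing the test. The median over the 18 members was 0.26.

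**Figure D3:**
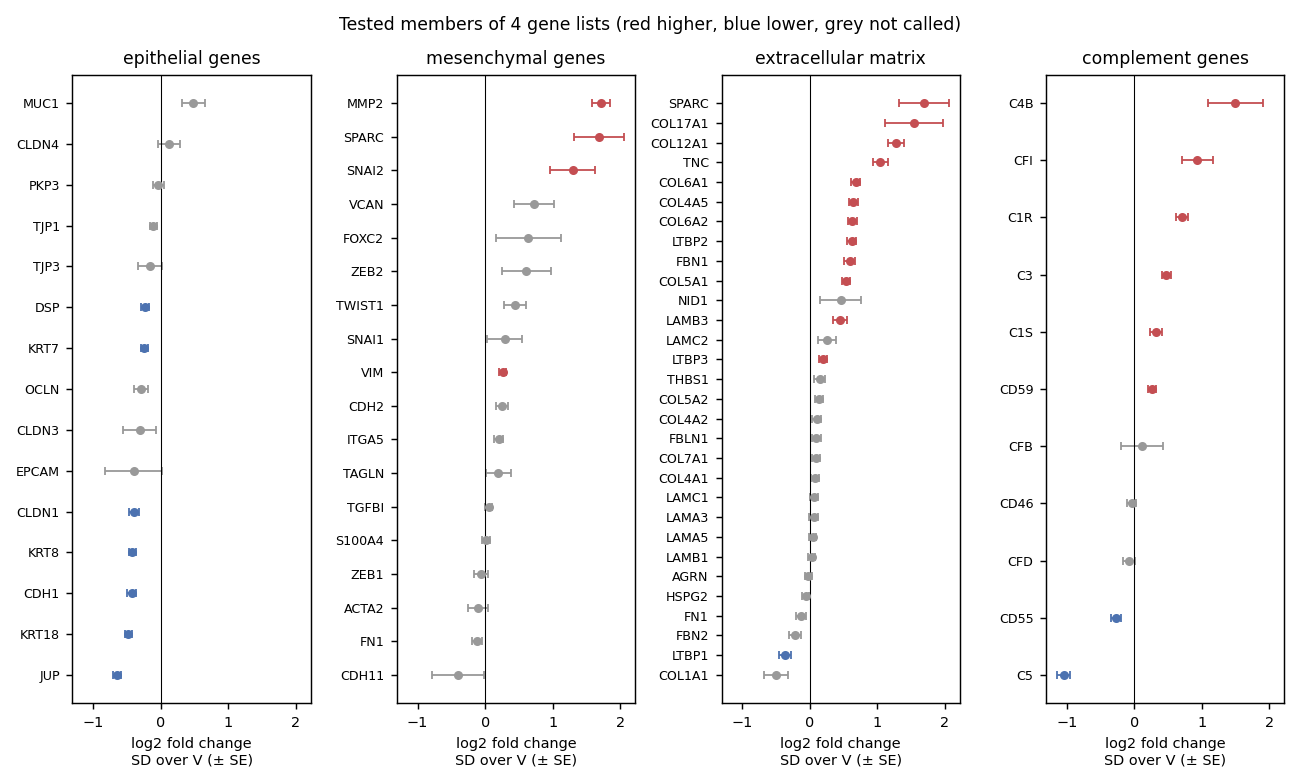
Log2 fold change of SD over V with its SE for the tested members of 4 gene lists that are reported here, in red where called higher, blue where called lower and grey where not called. The called epithelial genes all lie left of 0, the called mesenchymal genes all right of it, 12 of the 13 called matrix genes right of it, and the complement genes on both sides.

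Genes of the extracellular matrix gave 13 called members of 30 tested (43.3%, against 5.41% of all genes tested), 12 of them higher in SD, with a list median of 0.14. COL12A1, a collagen that sits on the surface of fibrils, was at 21.8, 15.5 and 15.1 CPM in V and 47.2, 44.2 and 36.3 CPM in SD (2.43-fold, adjusted p = 6.60e-08). TNC (tenascin C, a glycoprotein of remodelled matrix) was at 17.5, 17.8 and 17.5 CPM in V and 43.6, 31.8 and 33.5 CPM in SD (2.07-fold, adjusted p = 5.76e-07). FBN1 (fibrillin 1, the backbone of microfibrils) was at 54.1, 45.5 and 55.1 CPM in V and 83.9, 75.9 and 73.0 CPM in SD (1.51-fold, adjusted p = 1.47e-05). All 3 were above V in every SD library. FBN1 is a gene that the study itself picked from these libraries, so its rise is not independent evidence.

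Other called matrix genes included collagen chains and fibrillin-binding proteins. COL6A1 and COL6A2, whose chains join in type VI collagen, rose from 73.4 ± 3.16 to 117 ± 4.78 CPM and from 58.8 ± 0.890 to 90.7 ± 3.01 CPM (n = 3). COL5A1, which sets fibril diameter, rose from 184 ± 0.606 to 267 ± 17.3 CPM, and COL4A5, of basement membranes, from 90.0 ± 4.08 to 141 ± 16.9 CPM. LTBP2, which binds fibrillin, rose from 50.8 ± 3.65 to 77.9 ± 1.62 CPM. LTBP1, which holds latent TGF-beta in the matrix, went the other way, from 42.8 ± 4.22 to 33.1 ± 1.43 CPM. The major basement membrane chains COL4A1, COL4A2, LAMA5, LAMB1 and LAMC1 had log2 fold changes between 0.03 and 0.10 and did not pass the test. COL1A1 was at 11.4 ± 1.59 CPM in V and 8.02 ± 1.22 CPM in SD (adjusted p = 0.0928).

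Receptors for this matrix were called in 3 of 13 tested integrin genes (23.1%), all higher. Of all genes tested 2.92% rose and 5.41% were called in either direction. ITGB3, the beta chain of the vitronectin receptor, was at 13.1, 17.4 and 14.2 CPM in V and 35.6, 27.5 and 35.6 CPM in SD (2.22-fold, adjusted p = 4.17e-07). ITGA2, of the collagen receptor, rose from 69.5 ± 6.38 to 94.2 ± 8.95 CPM and ITGA3, of the laminin receptor, from 813 ± 17.7 to 993 ± 78.6 CPM. Their partner chains ITGAV and ITGB1 had log2 fold changes of 0.10 and 0.08 (adjusted p = 0.518 and 0.527). Proteases and their inhibitors were called in 10 of 20 tested genes (50%, against 5.41% of all genes tested), 6 higher and 4 lower. Beside ANPEP, MMP2 and SERPINE2, the metalloproteinase ADAM19 rose from 25.5 ± 2.64 to 41.5 ± 0.509 CPM and the metalloproteinase inhibitor TIMP1 from 98.4 ± 2.71 to 126 ± 0.948 CPM. MMP7 (matrilysin, of glandular epithelia) fell from 11.7 ± 2.69 to 6.34 ± 0.861 CPM, and MMP15 fell by 0.38 and MMP24 by 0.30 on the log2 scale.

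Complement genes had the largest called share of the lists, 9 of 12 tested members (75%), with 6 higher and 3 lower in SD, against 2.92% of all genes tested that rose and 2.49% that fell. C3, the central component, was at 216, 192 and 199 CPM in V and 315, 268 and 257 CPM in SD (1.39-fold, adjusted p = 2.74e-05). The protease C1R of the classical pathway was at 31.9, 32.4 and 27.7 CPM in V and between 45.7 and 54.4 CPM in SD (1.63-fold, adjusted p = 6.79e-06). C5, the precursor of the terminal pathway, went down from 46.5, 42.3 and 48.3 CPM to 24.4, 22.9 and 19.2 CPM (2.06-fold lower, adjusted p = 5.45e-08). All 3 separated the lines and were called under every setting. C1S, which pairs with C1R, rose from 46.6 ± 3.15 to 58.4 ± 7.72 CPM, the regulatory protease CFI from 3.95 ± 1.32 to 7.54 ± 1.04 CPM and C4B from 1.42 ± 0.974 to 4.03 ± 1.26 CPM. C4B has a near-identical copy, C4A, so its count is uncertain. Of the inhibitors on the cell surface, CD59 rose by 0.26 and CD55 fell by 0.27 on the log2 scale. The list count lay between 5 and 7 in all runs that left out 1 library, and it was 5 without V replicate 2 or 3. This list, like the others, was chosen with earlier results of these data known.

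Antigen presentation was called in 5 of 17 tested genes (29.4%), all higher, with a median of 0.22. Of all genes tested 2.92% rose and 5.41% were called in either direction. HLA-DMB, which the list does not hold, fell, as given above, by 2.18 on the log2 scale (adjusted p = 2.71e-05). NLRC5, the transcriptional activator of MHC class I genes, was at 9.05, 7.32 and 7.05 CPM in V and 12.7, 13.6 and 14.4 CPM in SD (1.74-fold, adjusted p = 0.00201). HLA-C rose from 46.0 ± 2.76 to 62.3 ± 2.98 CPM and the light chain B2M from 171 ± 10.1 to 217 ± 10.4 CPM (n = 3). TAPBP, which edits the peptides loaded, rose by 0.20 on the log2 scale. HLA genes are similar in sequence, so reads may be divided between them. Interferon genes had a median of 0.29 and 4 called members of 25 tested (16%, against 5.41% of all genes tested), with SAMD9L (1.74 ± 0.188 to 4.25 ± 0.373 CPM), IFIT3 and STAT2 higher and OAS1 lower (18.9 ± 1.12 to 13.1 ± 1.88 CPM). That count was 1 without SD replicate 1, V replicate 1 or V replicate 2 and 2 without V replicate 3. Among NF-kB and cytokine genes 3 of 20 were called (15%, against 5.41% of all genes tested), IL6 and CSF1 (the macrophage growth factor, 99.4 ± 5.35 to 152 ± 9.28 CPM) higher and IL18 lower.

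Among the known partners and targets of AHR, the called changes other than that of AHR itself were each under 1.5-fold. In the AHR complex list, 2 of 12 members were called (16.7% with AHR counted, against 5.41% of all genes tested). AHR was introduced into SD cells, so its call was set by the design. The other was NCOA3, a coactivator of nuclear receptors that fell from 271 ± 9.79 to 210 ± 5.36 CPM (n = 3, adjusted p = 5.85e-05). The partner ARNT was at 39.6 ± 2.89 CPM in V and 42.9 ± 1.24 CPM in SD (adjusted p = 0.528). Of 16 target genes 11 could be tested and 4 were called (36.4%, against 5.41% of all genes tested), 3 higher and 1 lower. The median log2 fold change was 0.17 against 0.00301 over all genes tested. EREG (epiregulin, a ligand of the EGF receptor) was at 117, 112 and 114 CPM in V and 165, 161 and 149 CPM in SD (1.38-fold, adjusted p = 5.76e-06). CYP1B1, an oxidizing enzyme of xenobiotics and estrogens, was at 60.5, 59.4 and 67.3 CPM in V and 80.9, 77.6 and 77.3 CPM in SD (1.26-fold, adjusted p = 0.00333). Both were above V in every SD library. KYNU, which cleaves kynurenine, rose 1.20-fold. TIPARP was at 22 ± 4.49 and 25.3 ± 0.269 CPM (adjusted p = 0.413), AHRR at 19.2 ± 1.21 and 24.0 ± 1.53 CPM (adjusted p = 0.0839, without overlap) and NQO1 at 886 ± 15.2 and 984 ± 57.9 CPM (adjusted p = 0.0941). CYP1A1 and CYP1A2 were too low to be tested.

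The core GCGTG was searched on both strands, where it reads CACGC on the other, in RefSeq promoter windows of GRCh38.p14 that run from 250 bases before to 50 bases after each start site. It is also a form of the core bound by hypoxia-inducible factors. The core was present in 41.7% of 525 windows of genes that rose and 42.3% of 433 windows of genes that fell, against 48.6% of the 15502 windows of all genes tested and 36.5% of all 35116 windows. Of the 35 called members of the AHR complex, AHR target, epithelial, matrix and complement lists, 25 had a window and 8 held the core upstream of the start. These 8 stretches are shown because they are where such a match lies in the genes described, 3 of which rose (EREG, COL12A1, FBN1) and 5 fell (NCOA3, CLDN1, JUP, LTBP1, C5). Each is written in the direction of transcription, with the match in capitals, and a match is not evidence of binding.
EREG, chr4:74364895-74364918, plus strand: cCACGCtccccacctcccggaggg
COL12A1, chr6:75206207-75206247, minus strand: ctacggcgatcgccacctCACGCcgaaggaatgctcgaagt
FBN1, chr15:48645036-48645076, minus strand: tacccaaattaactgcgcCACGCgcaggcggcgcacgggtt
NCOA3, chr20:47501821-47501861, plus strand: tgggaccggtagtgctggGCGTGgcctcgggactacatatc
CLDN1, chr3:190322567-190322607, minus strand: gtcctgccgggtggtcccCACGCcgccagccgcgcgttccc
JUP, chr17:41786733-41786773, minus strand: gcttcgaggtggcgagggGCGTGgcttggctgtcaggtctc
LTBP1, chr2:32946812-32946852, plus strand: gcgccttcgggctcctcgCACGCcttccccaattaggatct
C5, chr9:121074892-121074932, minus strand: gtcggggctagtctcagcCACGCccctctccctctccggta

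Among thyroid hormone genes, 2 of 11 tested were called (18.2%), both higher, against 2.92% of all genes tested that rose and 5.41% called in either direction. DIO2, the deiodinase that turns thyroxine into the active hormone, was at 17.0, 15.4 and 18.3 CPM in V and 22.5, 21.6 and 23.5 CPM in SD (1.34-fold, adjusted p = 0.0272). The lines did not overlap, but the call was lost without SD replicate 2 or 3, without V replicate 1 or 2 and with DESeq2. DIO2 was picked by the study from these libraries, so its rise here is not independent evidence. The study also measured DIO2 by qPCR and immunoblot in the V, WT, SA and SD lines, which was not used here. The list count was 1 without SD replicate 2 or V replicate 2. The receptors THRA and THRB had log2 fold changes of 0.02 and 0.50 (adjusted p = 0.942 and 0.0912).

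Signalling genes were called in several lists. In the AP-1 and MAPK feedback list 8 of 25 tested genes were called (32%, against 5.41% of all genes tested), 7 higher, with a median of 0.13. FOSL2, a subunit of AP-1, was at 371, 370 and 346 CPM in V and 500, 518 and 522 CPM in SD (1.42-fold, adjusted p = 2.84e-07). FOSL1 rose from 22.5 ± 1.60 to 29.9 ± 0.235 CPM (n = 3) and the immediate early genes FOS and EGR1 from 3.77 ± 0.0758 to 7.18 ± 0.892 CPM and from 3.31 ± 0.937 to 7.10 ± 2.66 CPM. DUSP5, a phosphatase of ERK, fell from 69.9 ± 3.18 to 51.5 ± 3.89 CPM. The count was 5 without SD replicate 3, V replicate 1 or V replicate 2. Of the YAP and TEAD genes 3 of 17 were called (17.6%, against 5.41% of all genes tested), all higher. They were CCN2 (11.2 ± 2.25 to 20.1 ± 1.38 CPM), CCN1, both secreted matrix proteins, and the receptor kinase AXL (288 ± 5.78 to 382 ± 11.1 CPM).

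Wnt genes gave 8 called of 21 tested (38.1%, against 5.41% of all genes tested), 4 in each direction, with a median of −0.02. DKK1, a secreted inhibitor of canonical Wnt signalling, was at 316, 293 and 314 CPM in V and 208, 218 and 199 CPM in SD (1.48-fold lower, adjusted p = 1.19e-07). RNF43, which removes Wnt receptors from the membrane, fell from 27.6 ± 4.67 to 15.5 ± 1.51 CPM, WNT7B from 311 ± 11 to 239 ± 10.3 CPM and the coreceptor LRP6 from 130 ± 5.83 to 106 ± 4.46 CPM. The ligand WNT5A rose from 15.2 ± 1.22 to 22.4 ± 2.14 CPM, the decoy SFRP1 from 63.6 ± 4.90 to 89.6 ± 3.99 CPM, and the receptor FZD7 and DKK3 by log2 fold changes of 0.37 and 0.36. Among TGF-beta and BMP genes 5 of 22 were called (22.7%, against 5.41% of all genes tested). The receptor TGFBR2 rose from 171 ± 4.02 to 232 ± 5.38 CPM and TGFBR1 from 39.5 ± 1.03 to 47.9 ± 1.94 CPM, and INHBB, the activin B subunit, fell from 72.6 ± 5.10 to 43.0 ± 4.25 CPM. SMAD6, an inhibitory SMAD, fell by 0.20 on the log2 scale. TGFBR1 and SMAD6 lost the call in most runs without 1 library, and the count was 3 without SD replicate 2 or any 1 of the V libraries.

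Of the ATF4 and unfolded protein response genes, 6 of 22 were called (27.3%, against 5.41% of all genes tested), 5 lower, with a median of −0.12. Asparagine synthetase (ASNS) fell from 104 ± 5.20 to 77.6 ± 7.53 CPM, and the serine and folate enzymes PHGDH, PSAT1 and MTHFD2 by 0.30, 0.26 and 0.27 on the log2 scale. The chaperone DNAJB9 fell from 12.6 ± 2.41 to 8.16 ± 0.337 CPM, while STC2 rose from 54.2 ± 1.70 to 66.3 ± 3.72 CPM. The count was 3 without V replicate 2. The 3 called p53 targets of 23 (13%, against 5.41% of all genes tested) were all lower, among them GDF15 (99.0 ± 2.82 to 64.6 ± 3.44 CPM, adjusted p = 4.92e-07), and only 1 was called without V replicate 3. The 3 called NRF2 genes of 29 (10.3%) were also lower, against 2.49% of all genes tested that fell and 5.41% called in either direction. HMOX1 fell from 136 ± 1.64 to 107 ± 5.63 CPM, AKR1C2 from 755 ± 43.4 to 578 ± 10.4 CPM and AKR1B10 by 0.18 on the log2 scale, and 8 members were called without SD replicate 1.

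Hypoxia and glycolysis genes gave 5 higher and 2 lower of 29 (24.1% called, against 5.41% of all genes tested). VEGFA, the angiogenic growth factor, was at 60.8, 64.5 and 67.2 CPM in V and 101, 89.1 and 97.4 CPM in SD (1.49-fold, adjusted p = 2.57e-06). HK2, a hexokinase, rose from 0.664 ± 0.165 to 2.35 ± 1.03 CPM at a low level, and HK1, SLC2A1 and PKM rose by log2 fold changes of 0.24, 0.25 and 0.19. CA12, a carbonic anhydrase, fell from 775 ± 38.1 to 579 ± 24.8 CPM and PFKFB3 from 274 ± 5.50 to 229 ± 5.85 CPM. That count was 4 without SD replicate 2 and 3 without V replicate 1. In the transporters of amino acids, SLC1A3 rose from 36.3 ± 2.52 to 53.3 ± 6.18 CPM and SLC38A2 from 453 ± 25.3 to 547 ± 51.2 CPM, 2 of 12 tested (16.7%, against 5.41% of all genes tested), with 1 called without V replicate 2 or 3. In sterol and fatty acid synthesis FADS1 rose and HMGCS1 fell, 2 of 28 (7.14%, near the 5.41% of all genes), with 1 called without SD replicate 2 or V replicate 1. KYNU was the only called gene of 8 in the kynurenine pathway (12.5%, against 5.41% of all genes tested), and it was not called without SD replicate 2 or V replicate 1 or 2.

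**Figure D4:**
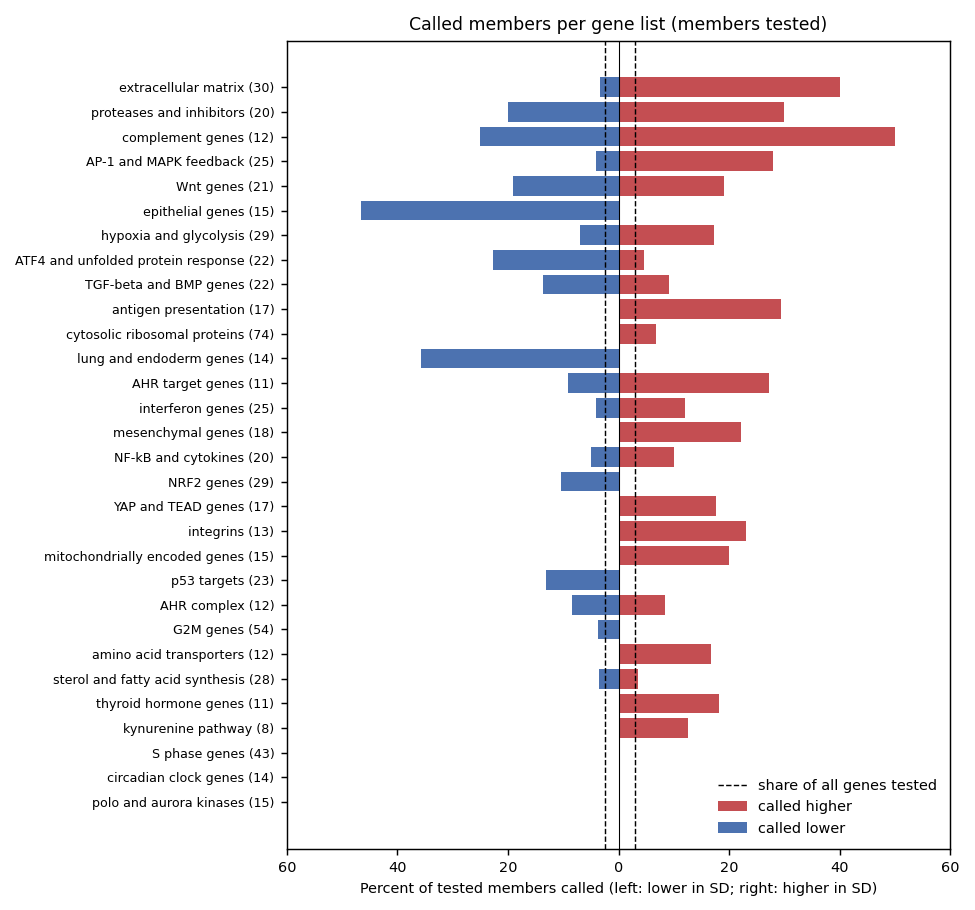
Percent of tested members called in each of 30 gene lists, to the right for genes higher in SD and to the left for genes lower in SD, with the number tested in brackets and dashed lines at the shares of all genes tested (2.92% and 2.49%). Epithelial, lung and endoderm, p53 target, NRF2 and G2M genes extend to the left alone. Mesenchymal, integrin, antigen presentation, thyroid hormone, YAP and TEAD, kynurenine, amino acid transporter, ribosomal and mitochondrial genes extend to the right alone.

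Lists of the cell cycle and the clock showed few calls. None of the 15 polo and aurora kinase genes, 43 S phase genes and 14 circadian genes passed edgeR's test. Of all genes tested 5.41% passed, a share at which lists of this size hold few calls. At an unadjusted p under 0.05 by edgeR's test there were 4, 9 and 2 such genes, against 2592 of all 14890 genes tested. DESeq2 also called 0 in each list. PLK1, the kinase that phosphorylates AHR in the study's scheme, was at 175, 177 and 180 CPM in V and 155, 166 and 156 CPM in SD (adjusted p = 0.108), without overlap of the libraries. In the G2M list 2 of 54 fell, CKAP5 (microtubule growth, 355 ± 20.9 to 301 ± 8.85 CPM) and ECT2 (cytokinesis, 292 ± 2.62 to 251 ± 11.5 CPM). The medians were −0.11, −0.07 and −0.05 for polo and aurora kinases, S phase and G2M genes. Below 0 were 13 of 15, 32 of 43 and 42 of 54 members, against 7328 of all 14890 genes tested. The G2M count fell to 0 without SD replicate 2, V replicate 1 or V replicate 3 and to 1 without SD replicate 3 or V replicate 2, and the S phase count was 1 without SD replicate 1 or V replicate 2, with edgeR's exact test, with at least 10 counts asked for in every library and with all 12 libraries in 1 fit. The 2 called G2M genes were 3.70% of the list, against 2.49% of all genes tested that fell.

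The counts for ribosomal and mitochondrial genes depended on single libraries. Of 74 cytosolic ribosomal protein genes 5 were called higher (6.76%, against 2.92% of all genes tested that rose). Among them were RPS29 (102 ± 22.4 to 140 ± 15.6 CPM), RPL39 and RPS12. The list median was 0.09, with 67 members above 0 and 7 below. Without SD replicate 1 the count was 26, without V replicate 1 it was 2, and without SD replicate 2, SD replicate 3 or V replicate 3 it was 1. SD replicate 1 had the lowest ribosomal share of the 6 libraries (3.69%) and SD replicate 3 the highest (4.34%). Of 15 tested mitochondrially encoded genes 3 were called higher (20%, against 5.41% of all genes tested that were called in either direction), MT-RNR1, MT-ND6 and MT-ND1. That count was 6 without SD replicate 1 or 3 and 0 without V replicate 3. The mitochondrial share was 10.1% in SD replicate 1 and 7.92% in SD replicate 3, the highest and lowest of the 6, and the part of these shares in the calls was not tested.

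The called genes were spread over the genome, at 3.04% (chromosome 19) to 7.87% (chromosome 8) of the genes tested on a chromosome. The median log2 fold change of a chromosome lay between −0.03 (chromosome 8) and 0.03 (chromosome 19). Over 293 bins of 10 Mb with at least 10 tested genes, the medians lay between −0.16 and 0.14, and no bin held more than 13 called genes. The called share of a bin reached 25.0% of 12 tested genes (chromosome 11, 130 to 140 Mb). It was 24.2% of 33 tested genes on chromosome 8 (10 to 20 Mb), against 5.41% of all genes tested.

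The same genes were set beside the WT and SA lines to see where SD differed from another AHR line. WT against V and SA against V use the same V libraries as SD against V, so their values are given side by side and no overlap is counted. The difference itself was tested in SD against WT, where 105 of 14828 genes were called (0.708%), and in SD against SA, where 33 of 15030 were called (0.22%). For most of the genes with the largest changes no difference between the AHR lines was called. ANPEP was at 58.8 ± 4.17 CPM in WT and 65.3 ± 2.66 CPM in SA (adjusted p of SD against WT 0.0597, against SA 0.574). NTS was at 5.29 ± 0.441 and 3.93 ± 0.551 CPM, and SVEP1 at 28.4 ± 0.448 and 25.7 ± 0.703 CPM. JUP was at 96.0 ± 8.78 and 106 ± 8.65 CPM and CDH1 at 112 ± 4.24 and 112 ± 8.49 CPM in these lines. For IL6, WT was at 0.814 ± 0.0676 CPM and SA at 0.560 ± 0.343 CPM, against 1.98 ± 0.483 CPM in SD (adjusted p = 0.237 and 0.199).

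Of the named genes reported here, 23 differed between SD and WT or SA, 9 of them from both. CEACAM6 was at 38.0 ± 3.08 CPM in WT and 31.2 ± 3.79 CPM in SA and lower still in SD, at 17.1 ± 1.37 CPM (n = 3, adjusted p of SD against WT 9.17e-07 and against SA 0.000594). MMP2 was at 16.9 ± 1.75 and 15.9 ± 1.79 CPM and COL12A1 at 28.3 ± 3.78 and 28.0 ± 3.20 CPM in WT and SA, between the levels of V and SD. Their log2 fold changes over V were 1.71 in SD, 1.17 in WT and 1.08 in SA for MMP2, and 1.28, 0.69 and 0.67 for COL12A1.

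A second group was near the V level in WT and SA. FBN1 was at 54.3 ± 3.61 CPM in WT and 54.3 ± 4.55 CPM in SA, against 51.6 ± 5.27 CPM in V and 77.6 ± 5.62 CPM in SD. C3 was at 194 ± 6.08 and 201 ± 25.9 CPM in WT and SA, against 202 ± 12.1 CPM in V. C1S, SLC1A3 (a glutamate transporter) and DIO2 had log2 fold changes over V between −0.24 and −0.05 in WT and SA and of 0.32, 0.55 and 0.42 in SD. All 5 were higher in SD than in either line at an adjusted p under 0.05, and DIO2 and FBN1 had been selected by the study for an order of the lines with SD highest. FOSL1 and AXL were the reverse case. FOSL1 was at 39.7 ± 2.31 CPM in WT and 38.8 ± 0.0903 CPM in SA, above its 29.9 CPM in SD (adjusted p = 0.0231 and 0.0761), and AXL at 454 ± 24.0 and 452 ± 7.58 CPM, above its 382 CPM in SD (adjusted p = 0.0269 and 0.0761).

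**Figure D5:**
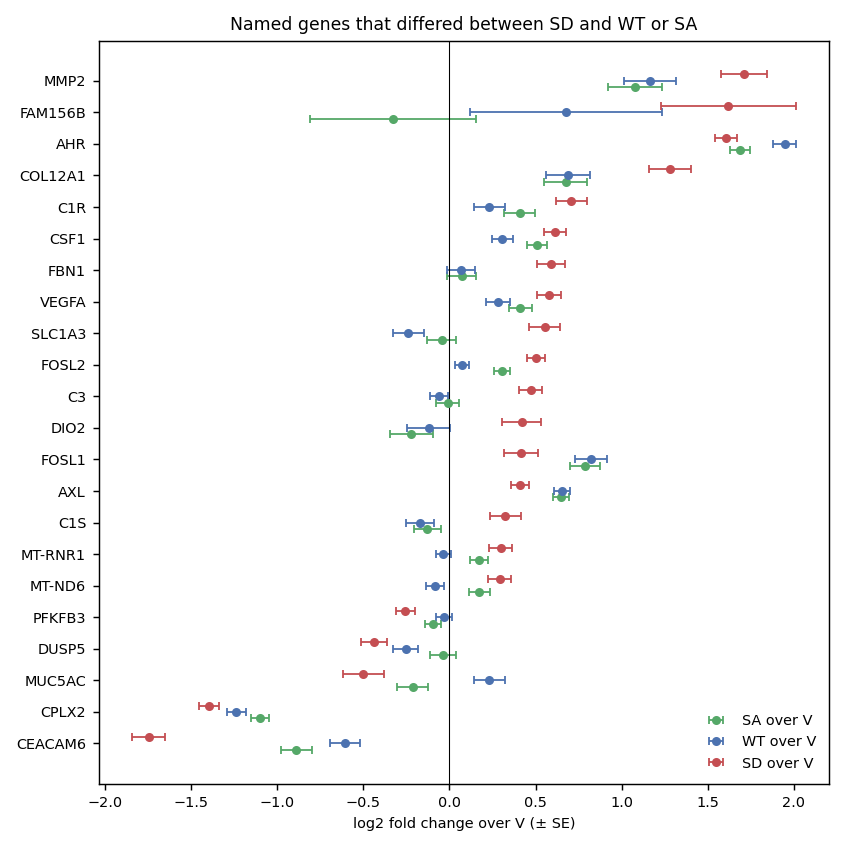
Log2 fold change over V with its SE in SD (red), WT (blue) and SA (green) for 22 of the named genes that differed between SD and WT or SA, with the gene that overlaps AHR left out. The 3 comparisons share the V libraries. CEACAM6 is lowest and MMP2, COL12A1, FBN1 and C3 highest in SD, while FOSL1 and AXL are highest in WT and SA.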

How the data were processed

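Poly-A libraries were sequenced. The authors' reads were trimmed by Trimmomatic 0.39 and assigned by RSEM to genes of GRCh38. The deposited table holds expected counts for 60623 genes and 12 libraries and is not normalized. A further deposited table of the authors' own edgeR comparisons (fold changes, p- and q-values) was not used here. Reads that fit several genes are divided by RSEM, so values of paralogs and overlapping genes are uncertain. Whether counting used strand is not given in the sources used here.

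Counts were rounded, and edgeR 4.0.16 (R 4.3.3) was run on the 6 SD and V libraries: filterByExpr (minimum count 10, minimum total 15), TMM and the two-sided quasi-likelihood test, with Benjamini-Hochberg adjustment over all genes tested. Levels are CPM scaled over all 12 libraries. Other pairs of lines were fitted likewise. On simulated data for SD against V (14877 genes tested), the test called 61 of 100 genes changed 1.5-fold and 84 of 98 changed 2-fold, with 14 false calls. No library was a copy of another. Alternatives were other filters, DESeq2 1.42.0 and its size factors, edgeR's exact test, all libraries in 1 fit, a replicate block and each library left out.

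Members, gene lists and tests were chosen with earlier results of these data known. Named genes were AHR and its overlapping gene, the 15 largest rises and falls among called genes with a symbol, separate libraries and at least 1 CPM in the higher line, the 5 lowest adjusted p in each direction, up to 5 called members per list and direction with members that define the list, and PLK1, DIO2 and FBN1. Some lists whose calls all went 1 way were set against the share of all genes called in that direction, picked after the values were seen. The share called in either direction was 5.41%. A few list members are counted but not reported by name here. Other members given are chosen after their values were seen.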

Additional observations from a re-analysis of the deposited data

Results flagged for a closer look

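Of the named genes of SD against V reported here, 23 had a different level in SD than in WT or SA by edgeR's test of that pair of lines. All values here are log2 fold changes, SD over WT or SD over SA. Genes higher in SD than in both lines were MMP2 (0.54 over WT, 0.63 over SA), COL12A1 (0.59 and 0.60), FBN1 (0.52 and 0.52), C3 (0.53 and 0.48), C1S (0.49 and 0.45), SLC1A3 (0.79 and 0.60) and DIO2 (0.54 and 0.64). Genes lower than in both were CEACAM6 (−1.15 and −0.86) and ENSG00000283321, the gene that overlaps AHR (−1.25 and −0.99). Higher in SD than in WT were C1R (0.47), CSF1 (0.30), FOSL2 (0.43), VEGFA (0.29), MT-RNR1 (0.33) and MT-ND6 (0.37). Lower in SD than in WT were AHR (−0.35), AXL (−0.25), FOSL1 (−0.41), MUC5AC (−0.73) and PFKFB3 (−0.23). Against SA, FAM156B (1.94) was higher in SD, and CPLX2 (−0.30) and DUSP5 (−0.40) lower. FAM156B, which has a near-identical paralog, had no count in 1 V library.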

How the results depend on the processing

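The 806 calls in SD against V (435 higher, 371 lower) ranged from 502 to 856 when 1 library was left out (SD replicates 1 to 3: 856, 525 and 669), with 262 to 448 higher and 233 to 408 lower, and were 122 when a 2-fold change was also asked for. The other settings gave between 618 (DESeq2) and 990 (edgeR's exact test). Replicate numbers did not pair the samples (correlations of same-numbered libraries 0.13, −0.03 and −0.0041), and with the replicate block 664 genes were called. Of the 140 named genes, 76 were called under every setting that gave them a value (117 of the 140 had one when at least 10 counts were asked for in every library), and none changed direction. Those that lost the call when at least 1 library was left out included AKR1B10, ASIC2, BTG2, C1S, C4B, CAPN3, CCN1, CD55, CFI, CHRDL2, CHST13, CHURC1-FNTB, CKAP5, COL17A1, DIO2, DKK3, DNAJB9, ECT2, EGR1, FADS1, FAM156B, FDXR, FGB, FGG, FOS, FOSL1, GDF1, HK1, HK2, HOOK1, IFIT3, IL18, KYNU, LIN7A, LTBP1, MMP7, MMP24, MT-ND1, MT-ND6, MT-RNR1, MUC5AC, MUC5B, OAS1, PHGDH, PKM, PTGES2-AS1, RPL37, RPL39, RPS3, RPS12, SELPLG, SLC2A1, SLC38A2, SMAD6, SNAI2, SPARC, ST7-AS1, STAT2, STC2, TAPBP and TGFBR1, and RPS29 lost it with DESeq2 alone. AHR with its overlapping gene kept its call under every setting. Changes under about 0.2 on the log2 scale, and large changes of genes near 3 counts in a library, are at the limit of this depth.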
